A study of Mus musculus with 6 samples.

Results

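BTZ and TNF-α were compared directly in C2C12 cells kept in 2% differentiation medium, by subtracting the array of the TNF-α culture from the array of the BTZ culture. The untreated array of that medium was not used, so a difference does not say which of the 2 cultures departed from untreated cells. C2C12 cells are mouse myoblasts, an established line; they proliferate while serum is plentiful and join into myotubes with many nuclei once it is withdrawn. Both cultures were first grown with 10% fetal bovine serum, were then given 2% differentiation medium, were treated on day 4 with 10 nM BTZ or 50 ng/ml TNF-α, and were harvested on day 5. BTZ is a common short name of bortezomib, a proteasome inhibitor, though the labels give the short form alone. They call the cells of every group myoblasts, in differentiation medium too. These are 2 of the 6 Affymetrix arrays of the study, and a second pair with the same agents, given for 24 h in growth medium with 10% serum, shares no array with them. The values were log2 signals per probe set, and a gene was the mean of its probe sets that name a single symbol, which gave 22180 genes. A gene was compared where the higher of its 2 arrays reached 5.05, the median of all values on both arrays, and 12897 genes did so. Each group was 1 array, so differences are given without error or test, and the precision of every value here is limited by the number of arrays.

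The proteasome is the barrel-shaped protease that breaks down proteins tagged with ubiquitin. When it is blocked, cells are known to raise chaperone genes through heat shock factors, antioxidant and proteasome genes through NRF2 and NRF1, and amino acid supply genes through ATF4. TNF-α binds its receptors at the cell surface and frees NF-kB from the IkB proteins, after which NF-kB turns on chemokines, acute-phase proteins and its own inhibitors. IkB is itself removed by the proteasome. In muscle, TNF-α is known as a cytokine of wasting, and myogenin and the other myogenic factors drive the genes of the contractile apparatus.

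At least 2-fold higher signals with BTZ were found for 705 genes, which is 5.47% of those compared, and at least 2-fold higher signals with TNF-α for 1295 genes, or 10.0%. Together these were 2000 genes, or 15.5%. In the gene lists below, only members that reached 5.05, the floor, were counted as past 2-fold. For differentiation medium, the 5.47% and 10.0% of all genes compared stand beside those counts. The excess on the TNF-α side grew with the size of the difference. At 4-fold there were 75 genes higher with BTZ and 336 higher with TNF-α, at 8-fold 9 and 102, and at 16-fold 1 and 29. The median difference over the genes compared was 0.01 (log2), and 34.9% of them lay within 0.25 of no difference. The array medians were 5.09 for BTZ and 5.02 for TNF-α. When the arrays were shifted to the same median, the counts became 574 higher with BTZ and 1453 higher with TNF-α, which put the BTZ share of the 2-fold genes at 28.3% in place of 35.3%. The lower signal lay under the floor for 68 of the genes higher with BTZ and 243 of those higher with TNF-α. Such a signal may be background alone, so the size of any difference that rests on a signal below 5.05 is uncertain. Probe sets with no gene name at all were balanced the other way: of 7539 above the floor, 1024 were at least 2-fold higher with BTZ and 317 with TNF-α.

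**Figure D1:**
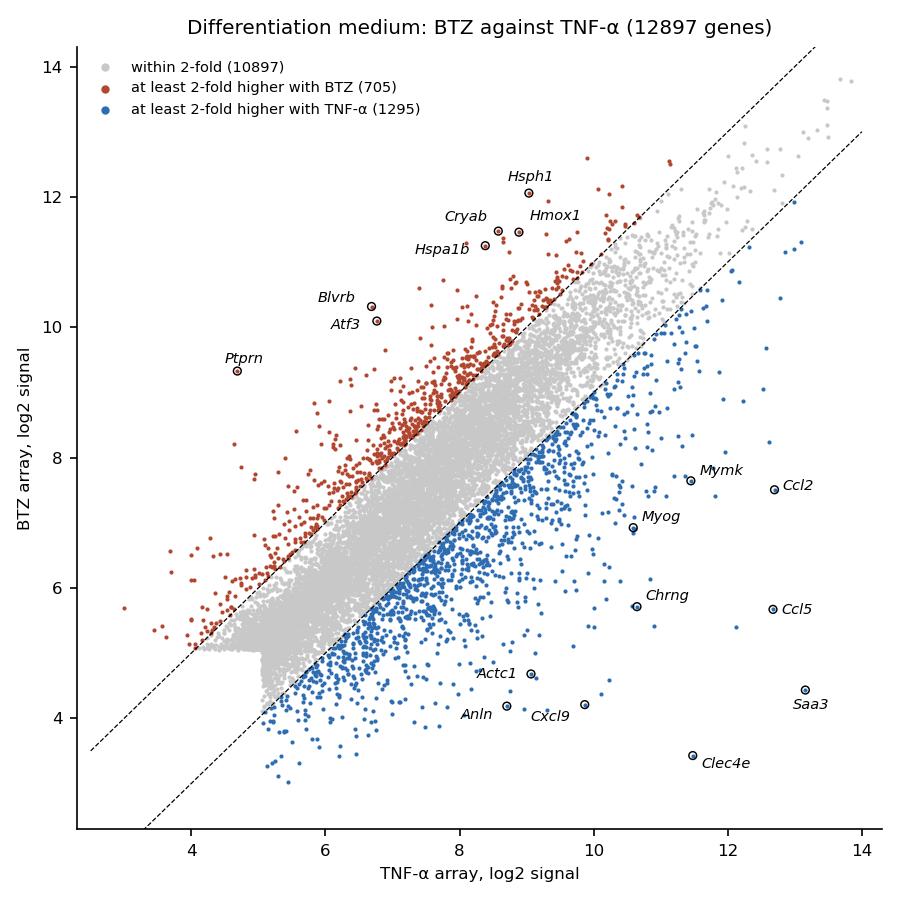
Log2 signal of 12897 genes on the TNF-α array (x axis) and the BTZ array (y axis), 1 point per gene, with dashed lines at a 2-fold difference. The 1295 genes higher with TNF-α reach farther from the lines than the 705 genes higher with BTZ, and Saa3, Clec4e and Ccl5 lie farthest out.

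A heat shock gene, an inflammatory gene and a muscle gene serve as markers of the contrast. Hspa1b, an inducible HSP70 chaperone, had a log2 signal of 11.25 with BTZ and 8.38 with TNF-α, a 7.30-fold higher linear signal with BTZ. Cxcl9, a chemokine that attracts T cells, had 4.21 with BTZ, under the floor, and 9.87 with TNF-α. Myog, the myogenic factor myogenin, had 6.93 with BTZ and 10.59 with TNF-α, a 12.7-fold higher signal with TNF-α.

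The TNF-α culture carried marks of myotubes, though not all of those looked at. The embryonic myosin heavy chain Myh3 had a log2 signal of 10.42 and myomaker (Mymk), the membrane protein of myoblast fusion, 11.45, against 3.62 and 5.10 in the TNF-α culture in growth medium. With BTZ these signals were 7.28 and 7.64, lower than with TNF-α and still above the 3.86 and 5.32 of the BTZ culture in growth medium. The giant sarcomere protein titin (Ttn) was close on both arrays of differentiation medium, at 11.08 with BTZ and 11.35 with TNF-α. Muscle creatine kinase (Ckm), also taken as a myotube marker, was low on both, at 5.29 and 5.79 as the mean of 2 probe sets. It was little above its growth medium signals, 5.25 with BTZ and 5.28 with TNF-α. Markers of other cells were near background: 12 of 13 macrophage and leukocyte markers and all 9 endothelial markers measured were under the floor on both arrays. The leukocyte gene Ptprc had 3.56 with BTZ and 3.29 with TNF-α, and the macrophage gene Adgre1 3.65 and 3.93. The median signal of the macrophage list was 4.09 with BTZ and 3.93 with TNF-α, and only the lysosomal Cd68 reached the floor, at 6.24 and 5.70. Of 13 adipocyte and osteoblast markers 6 reached the floor and 0 differed 2-fold.

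Chaperones of the cytosol were higher with BTZ. Of 17 HSP70 and HSP110 genes and cofactors, 7 were at least 2-fold higher with BTZ and 0 with TNF-α, with a median difference of 0.77 over all 17. The median over all 22180 genes was 0.02. Hsph1, the HSP110 that serves HSP70 as exchange factor, had 12.06 with BTZ and 9.03 with TNF-α, a difference of 3.02. Hspa1a differed by 2.59, but Hspa1a and Hspa1b are near-identical copies, so their signals cannot be assigned to one or the other. The HSP70 cofactor Bag3, which guides damaged filament proteins to autophagy, had 10.69 and 8.84. The adaptor Stip1, which links HSP70 to HSP90, differed by 1.71, and the constitutive HSP70 Hspa8 by 1.01. The heat shock element is the sequence that heat shock factors are known to bind. It was searched as GAANNTTCNNGAA on both strands in RefSeq promoter windows (GRCm38.p6) of 300 bases, 250 before to 50 after each gene's start. It was in 0.603% of 32851 windows. The window of Hsph1 is shown because its match lies just behind the start, 16 bases into the transcript on the minus strand of chr5:149636266-149636565, with the match in capitals.
Hsph1: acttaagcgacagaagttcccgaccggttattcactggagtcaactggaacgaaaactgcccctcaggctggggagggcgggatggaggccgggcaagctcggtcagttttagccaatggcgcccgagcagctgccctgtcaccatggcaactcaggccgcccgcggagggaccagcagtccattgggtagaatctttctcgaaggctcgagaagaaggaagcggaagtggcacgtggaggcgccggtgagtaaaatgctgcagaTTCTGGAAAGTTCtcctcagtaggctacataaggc
Hspa1b has a window without this match, although its difference was nearly as large, and a match is a description of letters, not of binding.

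Co-chaperones and folding machines went the same way. Of 15 HSP40 genes, which hand clients to HSP70, 5 were at least 2-fold higher with BTZ and 0 with TNF-α, with a median of 0.64. Dnajb1 had 11.31 with BTZ and 8.65 with TNF-α, Dnaja4 had 9.17 and 6.97, and Dnajb4 had 7.09 and 5.61. Of 19 genes of HSP90, its helpers and the chaperonins, 8 were at least 2-fold higher with BTZ and 0 with TNF-α, with a median of 0.95. Heat shock factor 2 (Hsf2) differed by 1.91, the HSP90 helpers Ahsa2 and Chordc1 by 1.88 and 1.72, and the inducible HSP90 Hsp90aa1 by 1.22. The mitochondrial chaperonin pair Hspd1 and Hspe1 differed by 1.66 and 1.52. The 8 subunits of the cytosolic CCT ring, which folds actin and tubulin, were all higher with BTZ but by less, from 0.29 for Tcp1 to 1.23 for Cct7, and only Cct7 passed 2-fold. Of 6 small heat shock proteins, 3 were at least 2-fold higher. Cryab, which protects the Z-disc, had 11.48 with BTZ and 8.58 with TNF-α, Hspb1 differed by 2.14 and Hspb8, the partner of Bag3, by 1.32. Hspb3 and Hspb6, both found mainly in muscle, differed by 0.36 and -0.22.

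Subunits of the standard proteasome were higher with BTZ almost throughout. None of them differed by as much as Hsph1 or Hspa1b, but their list medians were above those of the chaperone lists. Of 13 genes of the 20S core, 7 were at least 2-fold higher with BTZ and all 13 had a difference above 0, from 0.57 to 1.65, with a median of 1.01. Psmb2 had 10.17 with BTZ and 8.51 with TNF-α, and Psma1 had 9.79 and 8.19. Psma5 differed by 1.63 from low signals, 5.25 and 3.63. Of 21 genes of the 19S cap, 14 were at least 2-fold higher with BTZ and 1 with TNF-α, with a median of 1.25. The 6 ATPases of the cap, which unfold and feed the substrate, differed by 0.59 to 1.34. The ubiquitin receptor Psmd4 had 10.35 and 8.55, and the deubiquitinase of the lid, Psmd14, had 9.50 and 7.90. The exception was Psmd10, also called gankyrin, an assembly chaperone rather than a stable subunit, with 7.92 with BTZ and 9.01 with TNF-α.

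Immunoproteasome subunits, the cytokine-inducible forms that replace the catalytic subunits, went the opposite way. The standard catalytic subunits Psmb5, Psmb6 and Psmb7 were higher with BTZ by 0.74, 1.06 and 1.01. Their inducible counterparts were lower or level: Psmb8 had 5.24 with BTZ and 6.49 with TNF-α, and Psmb10 had 6.48 and 9.66. Psmb9 was under the floor on both arrays, at 4.57 and 4.55. The PA28 activator subunit Psme1 differed by -1.07, its partner Psme2 by -0.09, and the nuclear activator PA200 (Psme4) by 1.34. The catalytic subunits of both forms thus differed between the agents in opposite directions, except Psmb9.

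Other genes of protein removal were mixed. Of 16 assembly factors and activators, 6 were at least 2-fold higher with BTZ and 0 with TNF-α, with a median of 0.50. Zfand2a, a stress-induced proteasome partner, had 11.16 with BTZ and 8.74 with TNF-α, and Ufd1 and Nploc4, the adaptors of the p97 segregase, differed by 1.97 and 1.41. Of 14 ubiquitin genes and deubiquitinases, 2 were at least 2-fold higher with BTZ, the proteasome-bound Usp14 at 1.45 and Usp5 at 1.38, and 1 with TNF-α, the NF-kB inhibitor Tnfaip3 at -2.85. Among 29 wasting and autophagy genes 4 were at least 2-fold higher with BTZ and 3 with TNF-α, with a median of 0.14. Over all genes compared these shares were 5.47% and 10.0%. The autophagy receptor Sqstm1 had 12.55 with BTZ and 11.13 with TNF-α, and Atg14, which starts the autophagosome, had 8.60 and 6.84. The atrophy ligase Fbxo32 (atrogin-1) went the other way, with 7.05 and 8.77, and so did the second one, Trim63 (MuRF1), with 5.62 and 7.08. The ligase Fbxo40 differed by 1.35 and the mitophagy receptor Bnip3 by -1.67.

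Genes of the integrated stress response, in which ATF4 raises amino acid supply and repair genes, were higher with BTZ. Of 32 measured, 12 were at least 2-fold higher with BTZ and 1 with TNF-α, with a median of 0.77. Atf3, a stress-induced transcription factor, had 10.10 with BTZ and 6.77 with TNF-α. Ppp1r15a (GADD34), which restarts translation, had 9.26 and 6.61, and Trib3, a pseudokinase that restrains ATF4, had 8.21 and 5.93. The mitochondrial folate enzyme Aldh1l2 differed by 2.43, and the death-linked factor Ddit3 (CHOP) had 9.73 and 7.58. Atf4 itself differed by 0.77, less than 2-fold. The lipoprotein receptor Vldlr was the member at least 2-fold higher with TNF-α, at -1.72. The amino acid response element, bound by ATF4 dimers, was searched as TGATGNAA on both strands and was in 3.97% of all windows and in 8 of 31 windows of this list. Slc7a11, the cystine importer, is shown because its window on the minus strand of chr3:50443564-50443863 held 2 matches, at -66 and -47 from the start, in opposite orientations.
Slc7a11: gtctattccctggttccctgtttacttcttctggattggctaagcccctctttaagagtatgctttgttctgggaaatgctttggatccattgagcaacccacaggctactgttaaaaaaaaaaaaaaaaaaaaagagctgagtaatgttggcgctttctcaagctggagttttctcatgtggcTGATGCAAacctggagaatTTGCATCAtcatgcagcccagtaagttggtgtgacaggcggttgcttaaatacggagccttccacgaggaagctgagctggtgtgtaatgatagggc
Slc7a11 had 6.56 with BTZ and 3.69 with TNF-α, a difference of 2.87 as the mean of 2 probe sets, and of 4.67 in the brighter one. The 8 list members with a match had a median difference of 1.23 and the 19 without one 0.54. Vldlr, at -1.72, was among the 8. Chaperones of the endoplasmic reticulum had no common direction: of 24 measured, 2 were at least 2-fold higher with BTZ and 1 with TNF-α, with a median of 0.02. The main one, Hspa5 (BiP), had 11.72 and 10.18, and the stress sensor Ern1 (IRE1) 9.43 and 8.16, whereas the reductase Dnajc10 had 8.62 with BTZ and 10.16 with TNF-α.

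Antioxidant genes had the largest median of any list. Of 22 NRF2 targets, 13 were at least 2-fold higher with BTZ and 0 with TNF-α, with a median of 1.69. Blvrb, which reduces biliverdin in haem breakdown, had 10.32 with BTZ and 6.69 with TNF-α, and haem oxygenase Hmox1 had 11.46 and 8.89. The glutathione transferase Gsta4, which clears lipid peroxidation products, had 11.29 and 8.09. Sulfiredoxin (Srxn1) differed by 2.77, the stress regulator Osgin1 by 2.63, and both subunits of the rate-limiting enzyme of glutathione synthesis, Gclm and Gclc, by 2.28 and 1.70. The quinone reductase Nqo1 had 8.03 and 6.35. Nfe2l2, the gene of NRF2, was close on both arrays, at 10.10 and 10.36. Metallothioneins, which bind zinc and copper, went against this: Mt2 had 10.45 with BTZ and 12.78 with TNF-α and Mt1 had 10.30 and 11.63. Their regulator Mtf1 was higher with BTZ by 1.26.

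**Figure D2:**
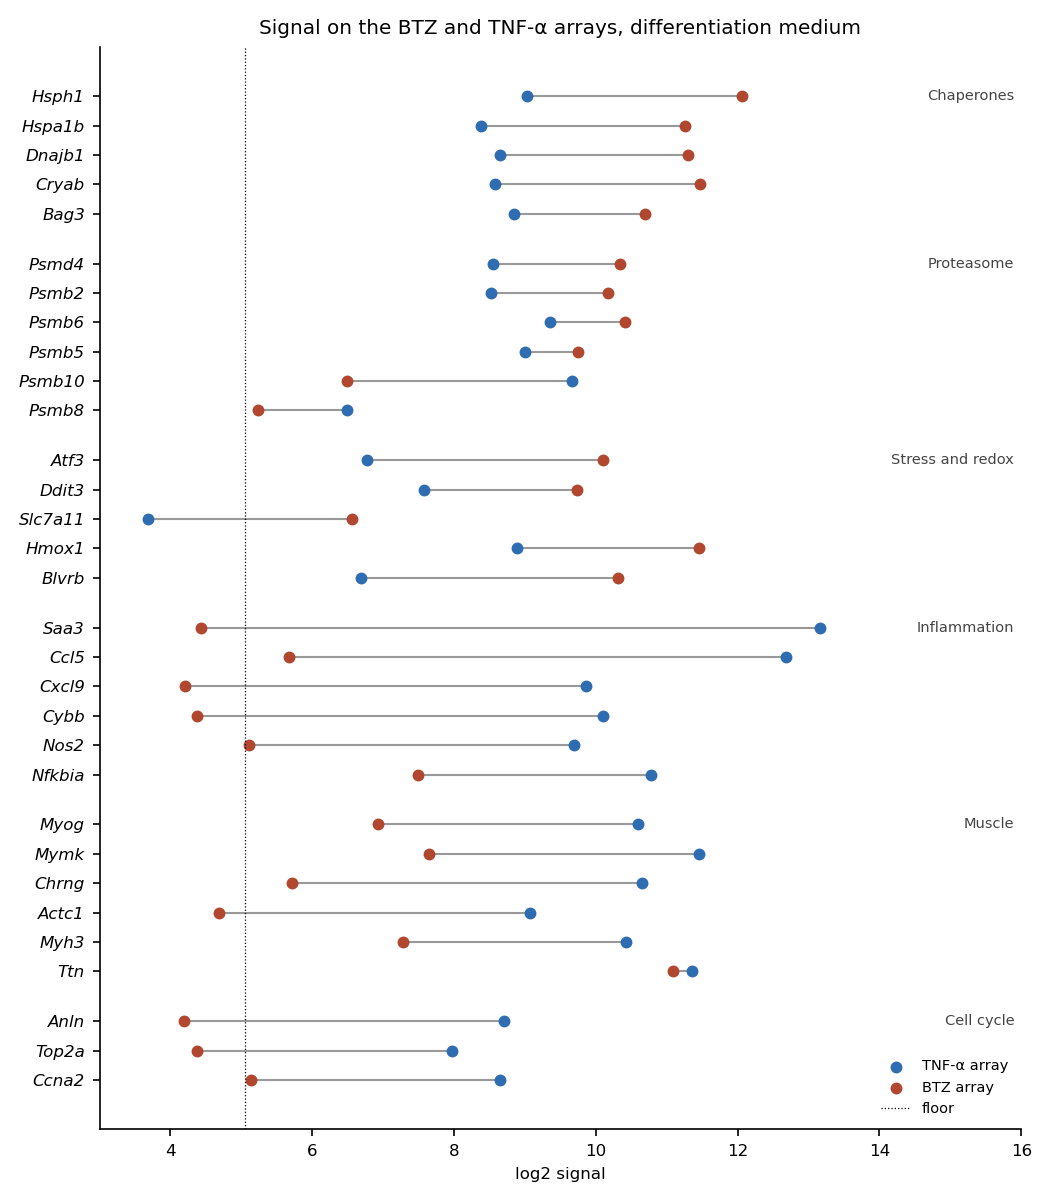
Log2 signal of 31 genes on the BTZ array (red) and the TNF-α array (blue) of differentiation medium, 1 array each, with the floor as a dotted line. Chaperone, standard proteasome and stress genes lie higher with BTZ, and Psmb8, Psmb10, inflammatory, muscle and cell cycle genes higher with TNF-α, with titin (Ttn) nearly level.

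Genes of the NF-kB pathway were higher with TNF-α. Of 22 measured subunits and inhibitors, 11 were at least 2-fold higher with TNF-α and 0 with BTZ, with a median of -0.90. The largest differences were in inhibitors that NF-kB itself induces. Nfkbie (IkBε) had 6.11 with BTZ and 9.71 with TNF-α, Nfkbia (IkBα) had 7.49 and 10.78, and the deubiquitinase Tnfaip3 (A20) had 6.67 and 9.52. Its partner Tnip3 had 4.53, under the floor, and 7.71, and its partner Tnip1 differed by -1.88. Among the subunits, Nfkb2 and Relb differed by -1.78 and -1.67, while Rela and Rel differed by -0.14 and 0.14.

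Chemokines had a median of -2.52 over 24 measured genes, the lowest of the lists when all measured members are taken. Over members above the floor the acute-phase list was lower, at -3.68 against -3.30. Of the 24, 15 were at least 2-fold higher with TNF-α and 0 with BTZ. Ccl5, which attracts T cells, had 5.67 with BTZ and 12.67 with TNF-α, and Ccl2, which attracts monocytes, had 7.51 and 12.70. The neutrophil chemokines Cxcl5 and Cxcl1 had 5.72 and 5.40 with BTZ against 10.57 and 10.00 with TNF-α. By family, 7 of 12 CC and 7 of 11 CXC genes were at least 2-fold higher with TNF-α. Of the interferon-linked CXC genes, Cxcl9 and Cxcl10 had 4.21 and 4.72 with BTZ, both under the floor, against 9.87 and 8.24, and Cxcl11 differed by -1.92. The kappa B site, to which NF-kB binds, was searched as GGGNNTTTCC on both strands and was in 1.63% of all windows, in 8 of 22 windows of the NF-kB list and in 5 of 19 of the chemokine list. Cxcl1 is shown because its window on the plus strand of chr5:90890995-90891294 held 2 matches, at -89 and -71.
Cxcl1: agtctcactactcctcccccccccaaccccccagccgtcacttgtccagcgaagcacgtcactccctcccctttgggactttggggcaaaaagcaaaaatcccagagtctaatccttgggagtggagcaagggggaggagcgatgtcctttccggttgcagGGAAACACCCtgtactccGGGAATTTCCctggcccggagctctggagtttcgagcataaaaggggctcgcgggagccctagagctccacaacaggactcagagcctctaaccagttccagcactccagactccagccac
Within the chemokine list the letters did not track the difference: the 5 genes with a match had a median of -0.88 and the 11 without one -2.34, and Cxcl9 had no match.

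Acute-phase and complement genes were higher with TNF-α and included the largest single difference, that of Saa3. Of 18 measured, 11 reached the floor, and 10 of these were at least 2-fold higher with TNF-α and 0 with BTZ. The median over all 18 was -1.51. Saa3, a serum amyloid, had 4.43 with BTZ and 13.16 with TNF-α. Complement factor B (Cfb) had 5.39 and 12.12, the pentraxin Ptx3 5.41 and 10.90, and the lipopolysaccharide-binding protein Lbp 4.13 and 9.31. The complement inhibitor Serping1 had 4.41 and 8.75. The signals of Saa3, Lbp and Serping1 with BTZ were under the floor, so these sizes are uncertain.

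Innate receptors and effector enzymes followed for part of their list. Of 25 measured, 10 were at least 2-fold higher with TNF-α and 1 with BTZ, with a median of -0.17. Clec4e, a receptor for mycobacterial glycolipid, had 3.43 with BTZ and 11.48 with TNF-α. Cybb, the catalytic subunit of the phagocyte oxidase, had 4.37 and 10.11. Nos2, the inducible nitric oxide synthase, had 5.11 and 9.69, the adhesion molecule Vcam1 8.09 and 11.97, and the receptor Tlr2 5.87 and 8.97. Clec4e and Cybb are best known from macrophages, whose markers Ptprc and Adgre1 were under the floor on both arrays. Ptgs2, the inducible cyclooxygenase, was the 1 past 2-fold the other way, with 12.12 with BTZ and 10.06 with TNF-α. Of 33 cytokines and receptors, 13 were at least 2-fold higher with TNF-α and 1 with BTZ, with a median of -0.63. The decoy receptor Il13ra2 had 3.88 with BTZ and 7.70 with TNF-α, its relative Il13ra1 7.75 and 10.28, the cytokine Lif 5.86 and 8.35, and Il15 4.31 and 6.76. The TNF family ligand Tnfsf9 was the 1 past 2-fold with BTZ, at 1.02.

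Interferon-stimulated genes were higher with TNF-α in part. Of 36 measured, 25 reached the floor, 15 were at least 2-fold higher with TNF-α and 0 with BTZ, and the median over all 36 was -0.82. The transcription factor Irf1 had 5.81 with BTZ and 8.71 with TNF-α. The guanylate-binding proteins Gbp5 and Gbp7, which attack intracellular pathogens, had 3.45 and 4.24 with BTZ against 6.45 and 7.11 with TNF-α. The signals of both with BTZ were under the floor, as was that of Oasl2, with 3.84 against 6.45. Parp14 differed by -2.55, while the antiviral Mx1 and Mx2 were under the floor on both arrays. The class I presentation and immunoproteasome list lay on the same side, with 7 of 17 measured at least 2-fold higher with TNF-α, 0 with BTZ and a median of -0.88. H2-T23 had 4.23 with BTZ and 7.63 with TNF-α, the peptide-trimming Erap1 6.64 and 9.36, and the class I heavy chain H2-K1 6.75 and 8.72. The peptide-loading Tapbp differed by -2.03. The interferon-stimulated response element was searched as TTTCNNTTTC on both strands and was in 3.44% of all windows and 15 of 32 windows of this list. Gbp7 is shown as a member with a match close to its start, at -53 on the plus strand of chr3:142530086-142530385.
Gbp7: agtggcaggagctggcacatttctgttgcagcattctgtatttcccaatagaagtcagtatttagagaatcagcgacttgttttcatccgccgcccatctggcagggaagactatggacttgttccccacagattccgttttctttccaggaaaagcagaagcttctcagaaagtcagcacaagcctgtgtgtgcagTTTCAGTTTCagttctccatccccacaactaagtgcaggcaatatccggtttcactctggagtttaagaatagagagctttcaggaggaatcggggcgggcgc
The 15 interferon-stimulated genes with a match had a median of -0.97 and differences below 0 throughout, and the 10 with a window but no match had -0.40.

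**Figure D3:**
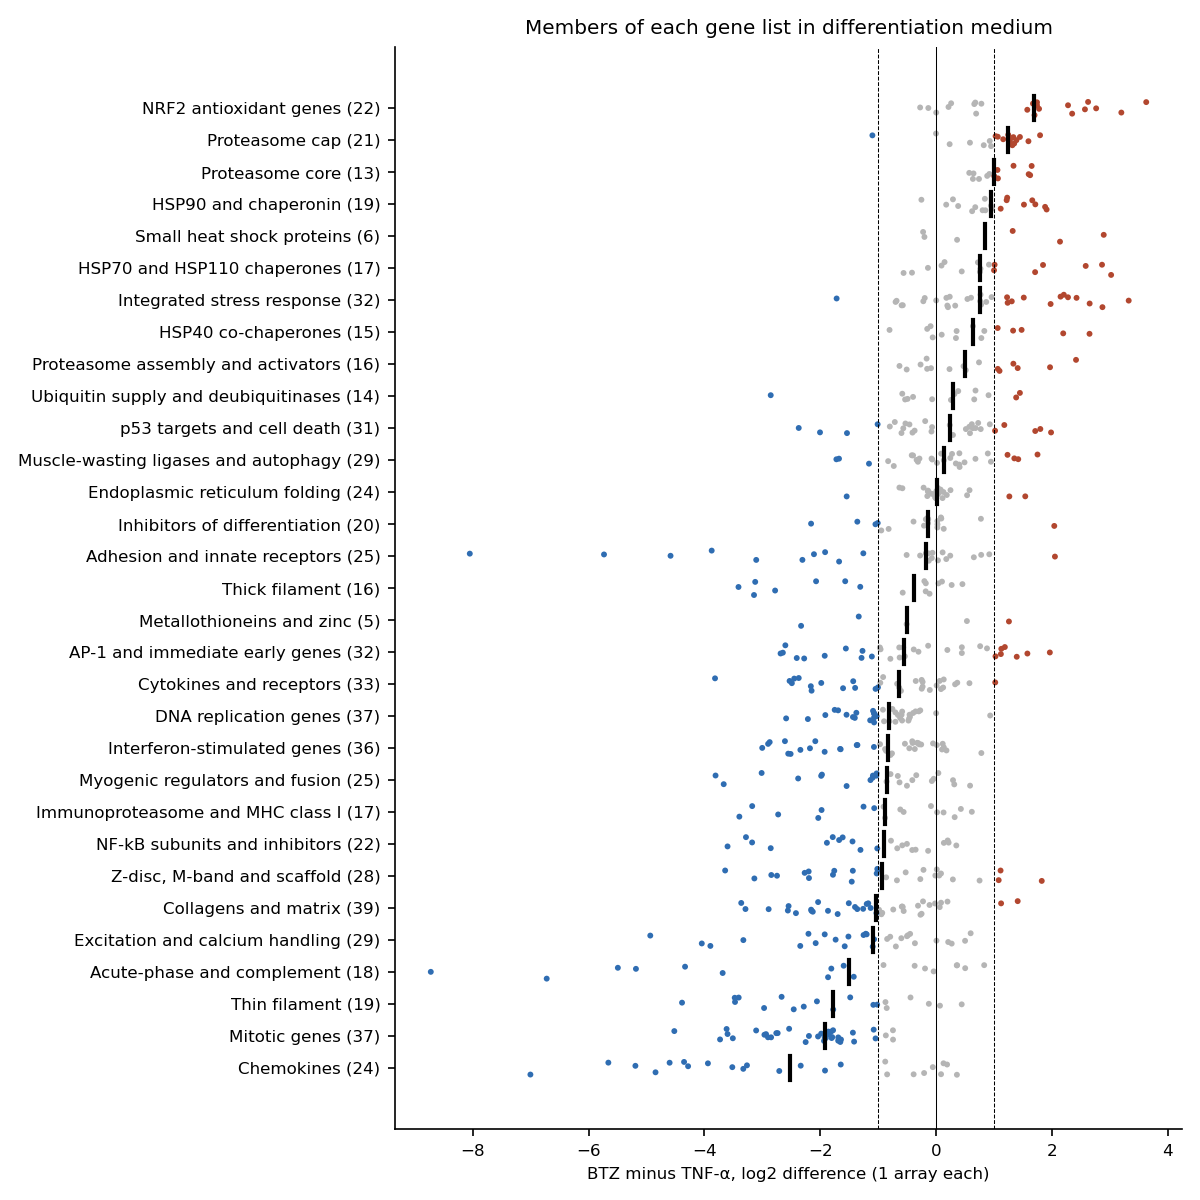
BTZ minus TNF-α log2 differences of all measured members of 31 gene lists, 1 point per gene, with the number measured in brackets, a black bar at the list median and dashed lines at 2-fold. NRF2, proteasome and chaperone lists sit to the right and chemokine, mitotic, thin filament and acute-phase lists to the left, and the immune lists have the longest tails.

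Genes that drive muscle differentiation were higher with TNF-α. Of 25 myogenic regulators and fusion genes, 12 were at least 2-fold higher with TNF-α and 0 with BTZ, with a median of -0.85. In bulk RNA of this kind, fewer cells of a type and less RNA per cell cannot be told apart. Besides Myog and Mymk, the second fusion protein myomixer (Mymx) had 4.54 with BTZ and 6.92 with TNF-α, the co-receptor Cdon, which promotes differentiation, 7.56 and 10.57, and Myod1 6.83 and 8.81. Among 20 measured repressors of differentiation, 1 was at least 2-fold higher with BTZ and 4 with TNF-α, with a median of -0.14. Id3, which sequesters the partners of MyoD, had 5.44 with BTZ and 7.60 with TNF-α, and Id2 7.09 and 8.45. The Notch ligand Jag1 was the 1 past 2-fold with BTZ, at 8.16 against 6.12.

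The contractile filaments differed by isoform. Of 19 genes of the thin filament, 13 were at least 2-fold higher with TNF-α and 0 with BTZ, with a median of -1.77. The cardiac actin Actc1, expressed in early myotubes, had 4.68 with BTZ and 9.07 with TNF-α, while the skeletal actin Acta1 differed by -0.85, from 11.51 to 12.36. Of 8 troponins 7 were at least 2-fold higher with TNF-α, in slow, fast and cardiac forms alike. Tnnt3 of fast fibres had 7.72 and 11.19, Tnni1 of slow fibres 6.13 and 9.10, and Tnnt2 of heart and embryonic muscle 9.06 and 12.53. The exception was the cardiac Tnni3, at 0.07. Of 16 thick filament genes 9 reached the floor and 7 were at least 2-fold higher with TNF-α, with a median over all 16 of -0.39. The fast light chain Mylpf had 7.49 with BTZ and 10.90 with TNF-α, and the fast heavy chain Myh1 differed by -3.12, as the embryonic Myh3 did by -3.14. The fast Myh4 had 3.96, under the floor, and 6.73. The slow heavy chain Myh7 and the perinatal Myh8 were near the floor, with differences of -0.18 and -0.57.

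Scaffold proteins were divided. Of 28 Z-disc, M-band and scaffold genes, 14 were at least 2-fold higher with TNF-α and 3 with BTZ, with a median of -0.93. The M-band proteins Myom1 and Myom2 had 4.17 and 7.12 with BTZ against 7.81 and 9.87 with TNF-α. The fast α-actinin Actn3 had 8.18 and 11.31, and the caveola protein Cavin4 7.55 and 10.39. Filamin C (Flnc), the actin cross-linker that Bag3 clears when it is damaged, went the other way, with 12.05 with BTZ and 10.22 with TNF-α.

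Genes of the excitable membrane and the calcium store were higher with TNF-α. Of 29 measured, 16 were at least 2-fold higher with TNF-α and 0 with BTZ, with a median of -1.09. Among the acetylcholine receptor subunits, the fetal γ subunit Chrng differed by -4.93, δ (Chrnd) by -3.33, α (Chrna1) by -1.20 and β (Chrnb1) by -0.48. The adult ε subunit Chrne was near the floor, at 5.07 with BTZ and 4.80 with TNF-α. The fast-fibre calcium pump Atp2a1 had 5.28 and 9.18, whereas the slow and general pump Atp2a2 had 11.44 and 11.23. The calcium store protein Srl differed by -4.04, and Casq1 had 4.82, under the floor, and 7.16. The E-box that MyoD and myogenin prefer was searched as CAGCTG, which reads the same on both strands, and was in 16.3% of all windows, 11 of 22 windows of this list and 8 of 18 of the thin filament list. Chrng is shown because it had the largest difference of the list and 2 matches, at -155 and -132 on the plus strand of chr1:87205561-87205860. One of the matches overlaps letters of the antioxidant response motif, as matches of different motifs did in 0.466% of all windows.
Chrng: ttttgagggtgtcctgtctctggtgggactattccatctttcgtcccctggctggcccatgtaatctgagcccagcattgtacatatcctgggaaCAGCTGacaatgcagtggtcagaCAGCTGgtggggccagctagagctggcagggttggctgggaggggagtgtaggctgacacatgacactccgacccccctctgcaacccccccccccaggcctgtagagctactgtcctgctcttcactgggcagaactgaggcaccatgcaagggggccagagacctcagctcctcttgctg
Chrng had 5.71 with BTZ and 10.65 with TNF-α. The 10 genes of this list with a match had a median of -1.20 and the 8 without one -0.54, whereas in the thin filament list the 7 with and the 8 without had -1.48 and -1.54.

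Cell cycle genes were higher with TNF-α throughout their list. All 37 mitotic genes had a difference below 0 and 34 were at least 2-fold higher with TNF-α, with a median of -1.92. The cytokinesis scaffold Anln had 4.19 with BTZ and 8.71 with TNF-α and its partner Ect2 5.03 and 8.76. The kinetochore gene Ndc80 had 3.87 and 7.48, and cyclin A2 (Ccna2) 5.14 and 8.65. Of 8 mitotic kinesins 7 were at least 2-fold higher with TNF-α, among them Kif23, with 4.25 and 7.10, and Kif11, with 4.53 and 7.28. The signals of Anln, Ect2, Ndc80 and these kinesins with BTZ were under the floor. The median signal of the list was 5.03 with BTZ, just under the floor, and 7.10 with TNF-α. Replication genes followed at smaller size: of 37 measured, 16 were at least 2-fold higher with TNF-α and 0 with BTZ, with a median of -0.80. E2f2, which activates such genes, had 5.22 and 7.81, the primase Prim1 4.33 and 6.54, and the helicase subunit Mcm5 5.40 and 7.15. The CHR element, through which the DREAM and MuvB complexes are known to time mitotic genes, was searched as TTTGAA on both strands and was in 17.9% of all windows and 27 of 34 windows of the mitotic list. Top2a, which untangles chromosomes, is shown because of its 2 matches, at -179 and -23 on the minus strand of chr11:99024140-99024439.
Top2a: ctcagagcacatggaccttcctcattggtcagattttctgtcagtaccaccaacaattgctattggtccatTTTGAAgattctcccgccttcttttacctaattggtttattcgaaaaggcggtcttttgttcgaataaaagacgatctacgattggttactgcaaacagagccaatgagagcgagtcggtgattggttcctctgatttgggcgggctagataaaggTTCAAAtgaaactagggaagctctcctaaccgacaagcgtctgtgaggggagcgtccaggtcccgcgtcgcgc
Top2a had 4.37 with BTZ and 7.97 with TNF-α. The 25 mitotic genes with a match had a median of -1.85 and the 7 without one -2.19.

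Immediate early genes lay on both sides. Of 32 AP-1, EGR, KLF and phosphatase genes, 7 were at least 2-fold higher with BTZ and 10 with TNF-α, with a median of -0.55. The 3 EGR factors measured in the list, which answer growth signals, were all higher with TNF-α: Egr1 had 6.97 with BTZ and 9.62 with TNF-α, Egr2 5.78 and 8.46, and Egr3 5.88 and 7.80. Of the AP-1 subunits, Junb had 7.72 and 10.33 and Fos 6.19 and 8.59, while Jun was higher with BTZ by 1.03. The phosphatases Dusp5 and Dusp4, which switch off ERK, had 8.73 and 9.40 with BTZ against 6.76 and 7.82 with TNF-α. They were the 2 of 7 dual-specificity phosphatases past 2-fold, and the differences of the 7 ran from -0.97 to 1.97. Genes of p53 and cell death had no common direction, with 5 of 31 at least 2-fold higher with BTZ, 4 with TNF-α and a median of 0.24. The 2 death receptors named here lay on opposite sides: Fas had 7.41 with BTZ and 9.79 with TNF-α, and Tnfrsf10b, the mouse TRAIL receptor, 10.74 and 8.75. The p53 inhibitor Mdm2 had 11.12 and 9.32, and the stress kinase Plk3 9.39 and 7.68.

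Matrix and metabolic genes were lower with BTZ for the most part. Of 39 matrix genes 20 were at least 2-fold higher with TNF-α and 2 with BTZ, with a median of -1.03. Periostin (Postn) had 8.86 with BTZ and 12.23 with TNF-α, decorin (Dcn) 6.77 and 10.06, and thrombospondin 1 (Thbs1) 9.68 and 12.57. The fibrillar collagens Col1a1, Col1a2 and Col3a1 differed by -2.13, -2.42 and -2.15. Timp3, an inhibitor of matrix proteases, and the collagen Col6a3 were the 2 past 2-fold with BTZ, at 1.41 and 1.12, although the other chains of collagen VI, Col6a1 and Col6a2, differed by -1.86 and -1.36. Of 17 cholesterol synthesis genes 13 were at least 2-fold higher with TNF-α, with a median of -1.40, and squalene synthase Fdft1 had 7.37 with BTZ and 10.31 with TNF-α. Of 18 glycolytic genes 7 were at least 2-fold higher with TNF-α, with a median of -0.88, led by the muscle enolase Eno3 at 8.35 and 11.47. Respiratory chain genes (25 measured, median -0.10) and ribosomal proteins (22 measured, median 0.22) lay near the median of all genes, with 1 gene past 2-fold in each, Cox8b at 4.32 with BTZ and 6.20 with TNF-α and Rps15 at 5.14 and 3.97. Of 11 genes commonly taken as references 3 were past 2-fold, among them the transferrin receptor Tfrc at -1.93 and Hprt at 1.22.

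Among the 12 highest differences were 7 genes of no list above. Ptprn, a protein of secretory granules, was the highest of all, with 9.33 with BTZ and 4.69 with TNF-α, and the latter was under the floor. The retinol and alcohol dehydrogenase Adh7 had 10.60 and 7.40, the tryptase Tpsab1 8.84 and 5.83, and Prkab2, a subunit of the energy sensor AMPK, 10.73 and 7.75. Taf1a, a factor of RNA polymerase I, differed by 2.96, the snoRNA host gene Snhg15 by 2.94 and Skint7 had 7.86 and 4.74, the latter under the floor. Of the 12 lowest, Crip1, a small LIM protein, had 4.59 with BTZ and 10.22 with TNF-α. The other 11 were inflammatory genes already named and Chrng.

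Motif shares differed more between a list and all windows than between genes past 2-fold and the rest. The motifs were chosen for the lists, so a higher share in a list is no result of these arrays. Shares given below across all genes are of genes past 2-fold, among those with and without a match. The heat shock element was in 3 of 20 windows of the HSP90 and chaperonin list, those of Chordc1 and of the neighbours Hspd1 and Hspe1, whose windows overlap, and 2 of 16 of the HSP70 list, both of them windows of Hsph1 that hold the same element. It was in 0 of 6 windows of the small heat shock proteins. Across all genes above the floor with a window, 7 of the 57 with this element were at least 2-fold higher with BTZ, or 12.3%. Hsph1, Chordc1, Hspd1 and Hspe1 were among the 7. The share was 5.53% of the 10032 genes without the element. For the interferon element, 14.9% of 350 genes with a match were at least 2-fold higher with TNF-α, against 9.65% of 9739 without. For the E-box the shares were 12.1% of 1844 and 9.33% of 8245, for the CHR element 11.7% of 1405 and 9.52% of 8684, and for the kappa B site 24 of 200 genes and 9.79% of 9889. The kappa B site was also more frequent on the other side: 18 of 200 genes with it were at least 2-fold higher with BTZ, against 5.50% of 9889 without. The antioxidant element, searched as TGACNNNGC on both strands, was in 12.4% of all windows and 8 of 24 of the NRF2 list. Across all genes above the floor it separated them little: 5.68% of 1674 genes with it and 5.55% of 8415 without were at least 2-fold higher with BTZ. Within the NRF2 list, the 7 genes with it had a median difference of 1.74 and the 9 without 0.68. Blvrb, the highest of that list at 3.63, was among the 9. The E-box was in 2 of 19 windows of the myogenic regulators, a smaller share than among all windows. It was in 8 of 15 of the adipocyte and osteoblast markers, a larger share than in any muscle list. In the macrophage markers it was in 5 of 10, the same share as the 11 of 22 of the excitation list. These are counts of short letter strings, not of bound sites, and a gene with several starts counts once per window.

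**Figure D4:**
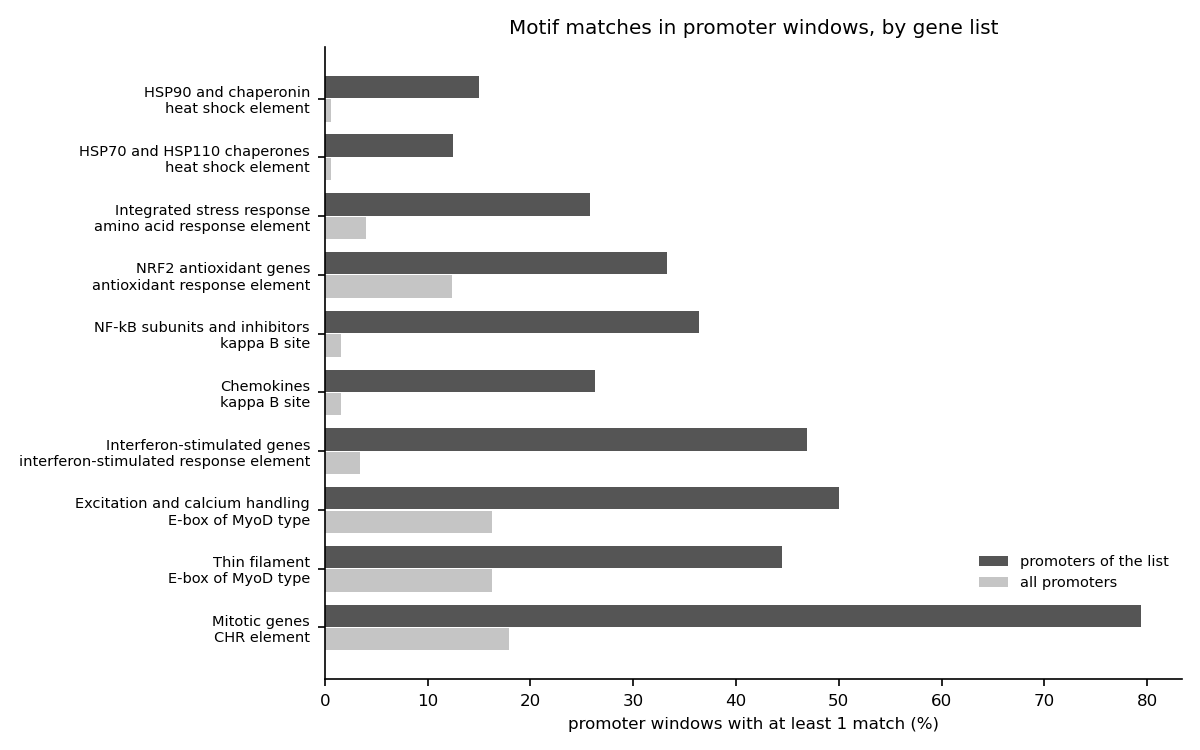
Percent of promoter windows with at least 1 motif match, for the windows of a gene list (dark bars) and all 32851 windows (light bars). The lists were picked for the motif; the share runs from 12.5% against 0.603% for the heat shock element in the HSP70 list, where both matches are 1 element of Hsph1, to 79.4% against 17.9% for the CHR element in the mitotic list.

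The same agents in growth medium gave a second view of the contrast from other arrays. There 576 of 12771 genes were at least 2-fold higher with BTZ, or 4.51%, and 922 with TNF-α, or 7.22%, together 1498 or 11.7%. Over 12297 genes above the floor in both media the differences correlated with Pearson's r = 0.65 across genes, which are not independent replicates. Of the genes at least 2-fold higher with BTZ, 262 were shared, 38.3% of the 684 of differentiation medium and 47.4% of the 553 of growth medium. Of those higher with TNF-α 512 were shared, 43.4% of 1180 and 57.4% of 892. No gene was at least 2-fold higher with BTZ in differentiation medium and with TNF-α in growth medium (0 genes), and 5 were the reverse: Chrng, Tnnc1, Calcoco1, Hsd17b11 and Casp1.

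Several stress genes had differences of like size in both media. Hspa1b differed by 2.87 in differentiation medium and 2.82 in growth medium, Cryab by 2.90 and 3.55, Psmd4 by 1.80 and 1.68, and Zfand2a by 2.42 and 2.05. Other stress genes differed less in growth medium: Hsph1 by 1.34 against 3.02 in differentiation medium, and Atf3 by 1.80 against 3.33. The list median in growth medium was 0.575 against 1.69 for NRF2 targets and 0.26 against 0.77 for the integrated stress response. All 37 mitotic genes were at least 2-fold higher with TNF-α in growth medium, with a median of -2.54 against -1.92 in differentiation medium. Of 37 replication genes 27 were so in growth medium, against 16 in differentiation medium. Their medians were -1.26 and -0.80. Chemokines were mixed. Their list median was -0.91 in growth medium against -2.52, with 10 genes at least 2-fold higher with TNF-α. Cxcl1 and Cxcl5 differed by -4.39 and -4.87 in growth medium, near their values in differentiation medium, while Ccl5 differed by -4.63 and Ccl2 by -6.22. The standard proteasome was higher with BTZ in growth medium by less, with medians of 0.53 for the core and 0.67 for the cap and 0 and 2 genes past 2-fold.

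Other groups had larger differences in differentiation medium. The thin filament list had a median of 0.18 in growth medium against -1.77, and excitation and calcium handling 0.05 against -1.09. Signals of the excitation list in growth medium were low, with a median of 5.58 with BTZ and 5.43 with TNF-α. The thin filament list had medians of 6.51 and 5.99 in growth medium, with 17 of 19 genes above the floor. Myog had 6.08 with BTZ and 5.97 with TNF-α there. HSP90 and chaperonin genes had a median of 0.04 in growth medium against 0.95, and Hspd1 and Hspe1 differed there by 0.02 and 0.06. Interferon-stimulated genes had -0.11 against -0.82, with 2 genes past 2-fold. Only 17 of the 36 reached the floor in growth medium. The median signals of the list there, 4.93 with BTZ and 4.88 with TNF-α, were under it. Several innate genes were near background in growth medium: Cxcl9 had 4.78 with BTZ and 4.94 with TNF-α, and the differences of Cybb, Nos2 and Lbp were -0.31, -0.22 and 0.23. In the opposite sense, Serpinb2, an inhibitor of plasminogen activators, differed by 0.57 in differentiation medium and -3.63 in growth medium, and the neuronal tubulin Tubb3 by 2.81 and -0.24. These differences between media rest on 4 single arrays and were not tested.

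**Figure D5:**
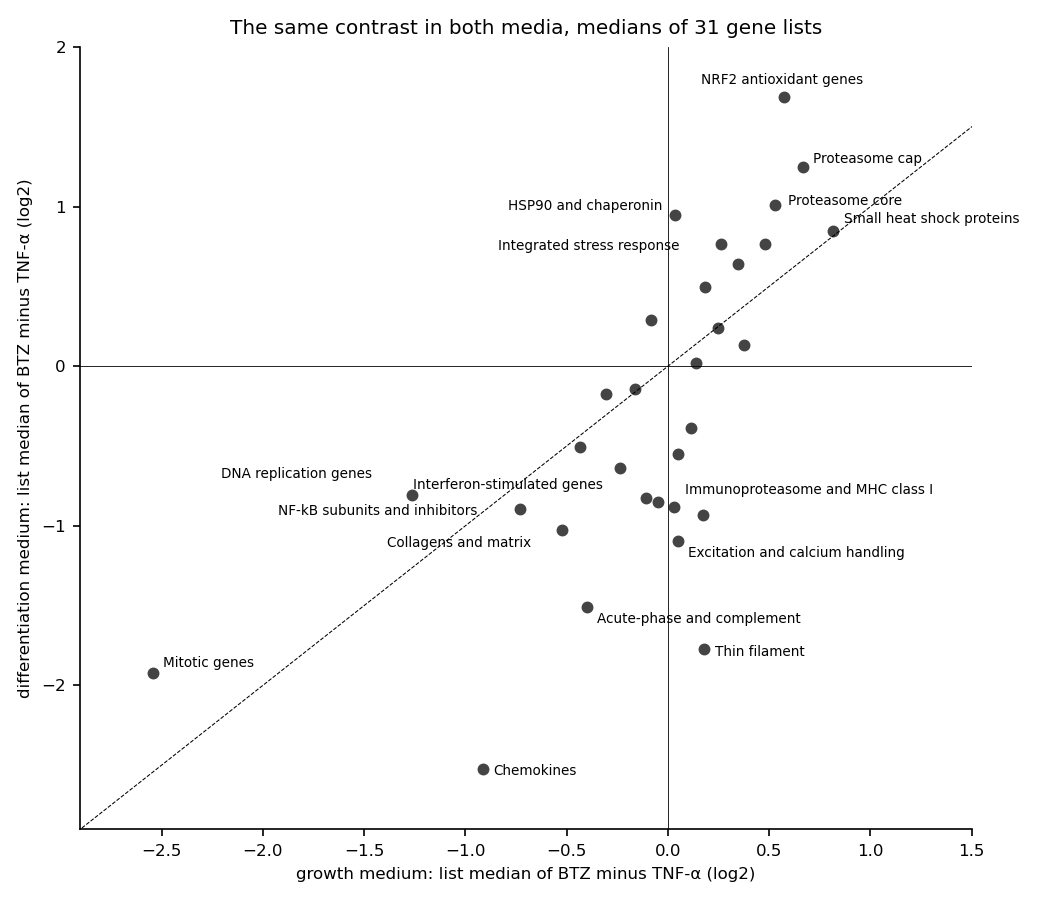
Median BTZ minus TNF-α log2 difference of 31 gene lists in growth medium (x axis) and differentiation medium (y axis), over all measured members, with the line of equal values dashed. Mitotic genes are low in both media, whereas the thin filament list is at 0.18 in growth medium and -1.77 in differentiation medium.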

How the data were processed

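The values are 1 log2 signal per probe set and array, as deposited by the authors. They were taken to be log2 because they run as such array signals do; how they were summarized and normalized is not given in the sources used here. Detection calls played no part. Total RNA was amplified by a whole-transcript kit and labelled with biotin, per the labels' protocols. Of 41345 probe sets 23521 named 1 symbol in the platform annotation and 1814 several, which were left out; 23328 were found in the RefSeq table by Entrez number. Genes with several probe sets (1082) took their mean, and of the 771 above the floor 97 had probe sets whose differences disagreed by 1 log2 unit or more. BTZ minus TNF-α was computed without scaling or test, in Python 3.11.15 with pandas 2.3.3, and checked on simulated data. The same floor was used in growth medium.

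The genes, the 39 gene lists and their members were chosen with earlier results of these data known. Named genes were the markers, the 12 highest and 12 lowest differences (without predicted genes, small RNAs and receptor families), in each main list the 5 largest and the largest against its median, in each other list the 2 largest, and the 6 on each side that differed most between media. Members of a complex or family were added by role, and a few regulators after their values were seen. Motifs were searched in 32851 RefSeq windows of 27025 genes; the motifs were chosen for the lists. Other scalings, floors and probe set rules were tried.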

Additional observations from a re-analysis of the deposited data

Results flagged for a closer look

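Chrng, the fetal subunit of the acetylcholine receptor, had opposite differences in the 2 media. BTZ minus TNF-α was -4.93 in differentiation medium, from signals of 5.71 and 10.65, and 1.13 in growth medium, from signals of 5.58 and 4.45. The growth medium signal with TNF-α was under the floor. Each value rests on 1 array a side, and the difference between media was not tested.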

How the results depend on the processing

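Counts of genes past 2-fold stayed within 1.5 times under every alternative: 574 to 735 higher with BTZ and 1052 to 1453 higher with TNF-α. Of the list medians and the genes named by rule, only the median of endoplasmic reticulum folding, near 0, changed sign. It went to -0.07 with shifted arrays and -0.04 with quantile normalization. Genes added by role, such as Tnni3 at 0.07, were not followed under the alternatives. Quantile normalization gave 641 and 1350, a BTZ share of 32.2%. Medians over members above the floor moved by over 0.25 in a few lists. Without a floor they went from -3.30 to -2.52 for chemokines, -0.96 to -0.63 for cytokines and receptors, -3.68 to -1.51 for acute-phase and complement genes, -1.37 to -0.82 for interferon-stimulated genes, -2.07 to -0.39 for the thick filament and 0.54 to 0.26 for macrophage markers (1 gene above the floor). All other list medians given are over all measured members. With both arrays above the floor interferon-stimulated genes went from -1.37 to -1.02, with a floor over 6 arrays the thick filament from -2.07 to -1.44, and with the brightest probe set acute-phase genes from -3.68 to -4.01. That last rule also moved 8 named genes: Cryab to 2.55, Hspb1 to 2.90, Psma5 to 2.62, Slc7a11 to 4.67, Uchl1 to 1.58, Tapbp to -3.26, Dll1 to -1.50 and Edem1 to -0.999. Quantile normalization of the 4 treated arrays left 248 and 534 genes shared between media. No paired analysis was possible because each group is 1 array, and leaving out an array leaves no comparison. Signals under the floor limit the sizes of the largest differences.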
